A study of Rattus norvegicus with 24 samples.

Results

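The prostate was compared with skin, ovary and forebrain of rats given dihydrotestosterone (DHT), the more potent androgen made from testosterone, to describe the genes that were higher in prostate than in each of the other tissues and those that were lower. The 12 arrays used, of 24 in the study, were chosen by their labels alone: 3 of prostate, 3 of skin, 3 of ovary and 3 of forebrain, all from DHT-treated Sprague-Dawley rats of 12 weeks. The males, which gave prostate, skin and forebrain, were castrated, and 3 days later each got 1 intraperitoneal injection of DHT at 10 mg/kg. The females, which gave ovary, were intact and received the same dose, and all tissues were taken after 16 h. In the comparison with ovary, tissue, sex and castration cannot be told apart. Vehicle-treated animals of the same kinds gave the other 12 arrays. Of these, 11 were used, and they had no part in the calls on DHT arrays. The label of forebrain vehicle array 3 says that it did not pass quality control, and it was not used. The labels name no lobe of the prostate and do not say whether tissues with the same number came from the same male, and the p-values rest on the spread among these samples alone.

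The epithelium of the prostate consists of luminal cells, which secrete proteins into the seminal fluid, and basal cells, which lie beneath them, and both are surrounded by smooth muscle and connective tissue. Luminal cells need androgen to make their main secretory proteins, and castration depletes these. Proteins to be secreted enter the endoplasmic reticulum through a channel, are folded there by chaperones, and leave in coated vesicles.

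Levels are on a log2 scale on which 0 is the array's own 75th percentile of the processed signal. Of 31899 genes tested with limma, 7608 had a symbol. The 75th percentile of the signal lay between 486 and 1447 on the prostate, ovary and forebrain arrays, and at 55.6, 180 and 203 on the skin arrays. The share of probes well above background ran from 55.1% (skin array 1) to 87.5% (forebrain array 1). Gene lists for each tissue followed the labels: keratinocyte genes had a mean level of 4.40 ± 0.44 (SD, n = 3) in skin and -1.11 ± 0.27 in prostate. Ovarian somatic cell genes were at 2.43 ± 0.34 in ovary and -3.80 ± 0.13 in prostate, and neuronal genes at 2.82 ± 0.06 in forebrain and -4.98 ± 0.32 in prostate. None of the Y-linked genes listed matched a symbol on the array.

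In all, 3172 genes (9.94%) were higher in prostate than in each of the other tissues at an adjusted p of at most 0.05, and 1794 (5.62%) were at least 2-fold higher in every comparison. Lower in prostate than in each were 1965 genes (6.16%), of which 1441 (4.52% of all) were at least 2-fold lower. Against skin alone 8946 genes were higher (28%) and 10644 lower (33.4%), against ovary 6950 (21.8%) and 6332 (19.9%), and against forebrain 10634 (33.3%) and 8439 (26.5%). These comparisons share the prostate arrays. The tissue closest in level was most often ovary for the higher genes, in 1633 (51.5%). Their smallest of the 3 log2 differences had a median of 1.11 (2.16-fold). For the lower genes ovary was closest in 815 (41.5%) and skin in 810 (41.2%). The median size of their smallest log2 difference was 1.33 (2.51-fold). Among genes with a symbol 572 (7.52%) were at least 2-fold higher and 329 (4.32%) at least 2-fold lower. All 3 prostate arrays lay above all 9 others in 13.3% of genes and below them in 7.28%. Higher genes that were well above background on all prostate arrays made up 9.86%, and lower genes that were so on all 9 other arrays 4.22%. The same rule applied to the other tissues called 6079 genes higher in skin (19.1%), 1910 in ovary (5.99%) and 4891 in forebrain (15.3%), and 3701 (11.6%), 1018 (3.19%) and 4984 (15.6%) lower.

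The scaling of the arrays bears on the split between higher and lower genes. The median difference of all genes was -0.27 against skin, 0.15 against ovary and 0.17 against forebrain. Of the genes called in all 3 comparisons 61.7% were higher in prostate, and 41.6% (2108 higher, 2961 lower) when the percentile was taken over probes detected on all arrays, where these medians became -0.61, -0.03 and -0.19. Against skin alone the higher share was 45.7%, and 33.7% with that percentile, 56.1% after quantile normalization and 25.4% after normexp background correction. Against ovary it was 52.3%, and 42% with that percentile, and against forebrain 55.8% and 44%.

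Secretory products of the prostate had the largest differences. Of the 14 listed products that were measured, 9 (64.3%) were higher in prostate than in each other tissue and none was lower. The shares among all genes with a symbol were 13.6% and 6.13%. A product counted as measured if 3 or more of the 12 arrays had it well above background, which the prostate arrays alone could supply. Without this filter 9 of 17 were higher, and with at least 6 arrays required 4 of 5. The median difference over the 14 was 9.23 against skin, 8.37 against ovary and 11.57 against forebrain, beside 0.01, 0.12 and 0.34 over all genes with a symbol. The 9 were Sbp, Andpro, Klk1c9, Scgb1d2, Scgb1d4, Klk1c8, Pbsn, Klk1c2 and Mme, and the other 5 were Acp3, Azgp1, Klk1c12, Rnase1 and Scgb2a1. Of these 5, Acp3 (-2.81, adjusted p = 0.0077) and Rnase1 (-3.77, adjusted p = 0.0069, limma) were lower in prostate than in skin. Azgp1 and Rnase1 were well above background on only 1 prostate array.

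Pbsn encodes probasin, a protein of prostatic secretion and the marker by which the tissue was checked. Its level was 1.36, 2.36 and 2.35 on the prostate arrays. It was -5.41, -6.92 and -7.01 in skin, -8.95, -8.56 and -6.94 in ovary, and -5.39, -7.24 and -8.21 in forebrain. Every prostate array was far above every other array, and the probe was well above background on 1 forebrain array only outside prostate. Pbsn was at least 78.1-fold higher than in skin and at least 264-fold higher than in ovary, where it was not well above background, and it was also called against forebrain (adjusted p = 2.3e-06, limma), where the size of the difference is not exact with 1 of 3 arrays measured. A bound of this kind sets the mean of the bright tissue against the lowest signal well above background on each dim array, or the probe's own signal where that is higher.

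Sbp, which encodes spermine-binding protein, had levels of 9.27 and 8.16 on prostate arrays 1 and 3, while its spot on array 2 was an outlier and was left out. On the other arrays it lay between -8.15 and -3.48, and it was at least 8059-fold higher in prostate than in skin and at least 27270-fold higher than in ovary. Andpro, a gene named for its regulation by androgen, also lacked array 2 and was at 8.48 and 7.44 in prostate. It was at most -4.70 on any other array, with a smallest difference of 12.97 ± 0.49 (SE, against skin, adjusted p = 1.3e-07, limma). S100vp, an S100 gene named for the ventral prostate, was at 7.46, 6.76 and 6.94, and was not well above background on any of the other arrays. Its level was at least 2551-fold that of skin, 8634-fold that of ovary and 7376-fold that of forebrain.

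The kallikreins are serine proteases of secretion. Klk1c9 was at 6.53, 6.09 and 6.24 in prostate and not well above background elsewhere, at least 1502-fold higher than in skin. Klk1c8 (6.63, 5.27 and 5.56) and Klk1c2 (6.49, 6.01 and 6.09) were also measured on all 3 ovary arrays, at -4.93 to -2.41 and -2.45 to -0.22, and their differences to ovary were 9.32 ± 0.69 and 7.43 ± 0.86. No other array reached the prostate arrays for any of these kallikreins, as their choice among the 15 genes required. Kallikrein genes of this cluster, like the secretoglobins below, belong to multigene families. Cross-hybridisation between relatives was not tested, so the share of each gene is uncertain.

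Scgb1d2 and Scgb1d4 encode secretoglobins, small secreted proteins. Scgb1d2 was at 8.55, 7.34 and 7.40 in prostate, Scgb1d4 at 9.01, 7.61 and 7.78. In skin they were at -5.10 to -2.80 and -4.22 to -2.08, in ovary and forebrain at most -6.45 and at most -5.04. In each gene prostate did not overlap with the other tissues, as the choice of these genes required. Scgb1d4 was well above background on all 3 skin arrays, 2611-fold lower than in prostate.

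The 250 bases before the start of Pbsn, Scgb1d2 and Scgb1d4 are printed because Pbsn marks the tissue and was not called on the vehicle arrays, and the secretoglobin pair was called on both sets of arrays. They are from RefSeq's promoter table (GRCr8, not the assembly of the array design), read 5′ to 3′ along the gene. Capitals mark TGTTCT, a half-site of steroid response elements, and TATAAA, the TATA box, searched on both strands.
Pbsn, chrX:45807984-45808233, minus strand: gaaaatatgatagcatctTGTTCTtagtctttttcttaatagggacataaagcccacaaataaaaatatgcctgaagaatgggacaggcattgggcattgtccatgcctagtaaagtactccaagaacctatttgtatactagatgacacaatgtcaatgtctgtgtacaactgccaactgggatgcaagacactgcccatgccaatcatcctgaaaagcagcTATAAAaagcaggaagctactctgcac
Scgb1d2, chr1:215656711-215656960, minus strand: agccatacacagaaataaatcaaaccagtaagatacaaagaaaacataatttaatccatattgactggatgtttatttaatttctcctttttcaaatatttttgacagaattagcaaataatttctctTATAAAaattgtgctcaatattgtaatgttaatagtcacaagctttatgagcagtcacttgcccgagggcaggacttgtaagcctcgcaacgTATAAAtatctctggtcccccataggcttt
Scgb1d4, chr1:215755113-215755362, plus strand: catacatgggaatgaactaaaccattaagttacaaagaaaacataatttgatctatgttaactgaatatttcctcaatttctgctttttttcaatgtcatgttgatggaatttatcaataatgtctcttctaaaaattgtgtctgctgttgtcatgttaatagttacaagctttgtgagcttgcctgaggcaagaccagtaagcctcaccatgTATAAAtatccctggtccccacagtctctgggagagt
Counted from the start, the Pbsn window holds TGTTCT at -232 to -227 and TATAAA at -27 to -22. The Scgb1d2 window holds TATAAA at -122 to -117 and at -30 to -25, and that of Scgb1d4 at -37 to -32. The windows of Scgb1d2 and Scgb1d4 were identical in 189 of 261 aligned columns (72.4%). TATAAA was found in 12.9% of all 33469 promoters in the table, in 9.75% of those of measured genes with a symbol, in 6.4% of those of the genes at least 2-fold higher in prostate and in 9.51% of those at least 2-fold lower. TGTTCT was found in 17.5%, 12.6%, 11.4% and 12%, so that its share in the higher and the lower genes was near that of the measured genes. A match describes the letters and shows no binding.

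**Figure D1:**
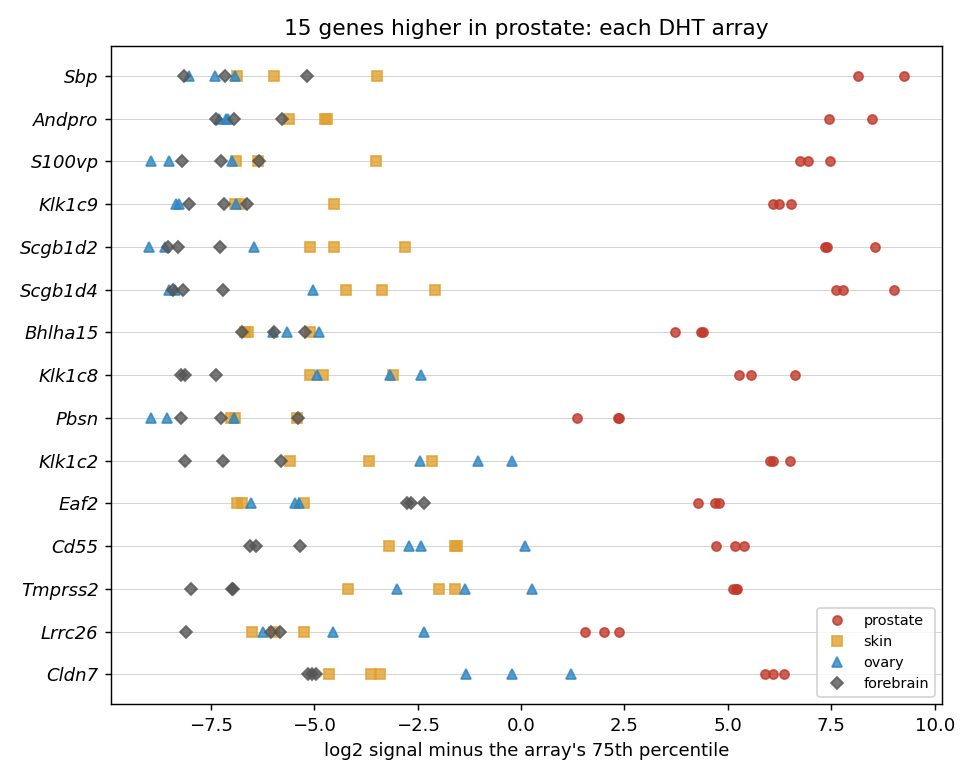
Levels (log2 signal minus the 75th percentile of the array) of the 15 named genes with the largest smallest difference in favour of prostate, 1 point per DHT array. In each gene the prostate points lie to the right of all others, as the choice of these genes required. Sbp and Andpro have 2 prostate points, since 1 spot was left out.

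The other genes among the 15 with the largest differences included nuclear factors and membrane proteins. Bhlha15, which encodes the transcription factor MIST1 of serous secretory cells, was at 4.40, 4.36 and 3.72 in prostate and between -6.75 and -4.89 elsewhere. Its smallest difference, against ovary, was 9.67 ± 0.50 (SE, adjusted p = 5.3e-07, limma). Eaf2, a factor of transcription elongation, was at 4.27, 4.69 and 4.79 in prostate and nearest in forebrain, at -2.34, -2.74 and -2.66. The smallest differences of the rest were 6.76 for Cd55, which protects cells from complement, 6.54 for Tmprss2, a membrane serine protease, 6.35 for Lrrc26, a subunit of potassium channels, and 6.23 for Cldn7, a tight-junction protein. All 4 were nearest in ovary. The largest adjusted p of the 15 genes was 0.000244 (Lrrc26 against ovary, limma), and all 15 calls held in each of 12 fits that left out 1 array. Their choice by size and separation on these same arrays made that likely. Of all genes called higher, 78.3% (without prostate array 3) to 97% (without skin array 1) kept the call in these fits.

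Of 15 transcription factors of prostate and secretory epithelium that were measured, 8 (53.3%) were higher and none was lower. They included Bhlha15, Creb3l2, Elf3, Foxa1, Foxq1, Gata2 and Tbx3. The count of higher members was 6 to 7 in the fits that left out 1 array, and 8 after quantile normalization. It was 6 with the percentile over detected probes, without the filter on dim probes, or at a threshold of 0.01. Foxa1, a forkhead factor that opens chromatin for other factors, was at -1.35, -1.08 and -1.27 in prostate and not well above background in skin and ovary, at least 8.19-fold and 27.7-fold lower there. Tbx3, a T-box factor, was at 5.20, 4.84 and 4.90, and next highest in skin, at 2.83, 1.18 and 0.40. Its difference to skin was 3.51 ± 0.52 (adjusted p = 0.000191, limma). The call of Elf3 was lost in 11 of the 12 fits that left out 1 array, all but the fit without ovary array 2. Its adjusted p against ovary was 0.0471 with all arrays (limma). Its smallest difference was 2.41 with all arrays, 1.35 without ovary array 1 and 2.20 to 2.69 in the other fits that lost the call. After normexp its smallest difference was -0.59.

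The steroid receptors described here gave no call in all 3 comparisons. Esr2, the beta receptor for estrogen, was at -1.61, -1.49 and -1.82 in prostate and -2.09, -2.66 and -2.22 in ovary, a difference of 0.68 ± 0.77 (adjusted p = 0.515, limma), and was not well above background in skin. Esr1, the alpha receptor, was not well above background in prostate and was measured on all skin and ovary arrays, at -4.02 to -2.69 and -4.35 to -2.64. Pgr, the progesterone receptor, was not well above background in prostate or skin. Nr3c1, the glucocorticoid receptor, had means of 0.95, 0.92, 1.13 and 1.67 in prostate, skin, ovary and forebrain. Nr3c2, the mineralocorticoid receptor, was 2.26 ± 0.32 higher than in skin and 3.15 ± 0.32 higher than in ovary, and differed from forebrain by -0.01 ± 0.32.

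Genes of simple epithelium were higher in prostate as a group. Of 20 measured, 16 (80%) were higher than in each other tissue and none was lower, with median differences of 3.10 against skin, 4.28 against ovary and 7.72 against forebrain. They included the keratins Krt8 and Krt18 of luminal cells, the adhesion genes Cdh1 and Epcam, and the claudins Cldn3, Cldn4, Cldn7 and Cldn8. Cldn7 was at 6.09, 5.89 and 6.35 in prostate, at -1.34, 1.20 and -0.22 in ovary, and at most -3.41 in skin and forebrain. Prostate did not overlap with the other tissues, as the choice of this gene required, and the difference to ovary was 6.23 ± 0.54 (adjusted p = 1.0e-05, limma). St14, the membrane protease matriptase, was at 2.53, 3.18 and 3.04, with a smallest difference of 4.34 ± 0.57 against skin. Prom1, a protein of membrane protrusions, was at 4.04, 4.31 and 4.23, with a smallest difference of 3.73 ± 0.44 against forebrain. Those not called included F11r, Krt19 and Spint1.

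Genes of basal epithelium ordered the tissues differently. None of the 6 measured was called in either direction: Krt14, Krt15, Krt17, Krt5 and Tp63 were lower than in skin, and each was higher than in ovary. Their list had a mean level of 2.57 ± 0.22 (SD) in prostate, 5.96 ± 0.37 in skin, -2.52 ± 0.26 in ovary and -3.68 ± 0.67 in forebrain.

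The machinery of protein folding in the endoplasmic reticulum was higher in prostate almost throughout. Of 21 measured members 19 (90.5%) were higher than in each other tissue and none was lower. The median difference was 2.91 against skin, 1.67 against ovary and 2.81 against forebrain, smaller than in the secretory list. Hspa5, the chaperone BiP, had mean levels of 7.83 in prostate, 5.13 in skin, 5.70 in ovary and 4.79 in forebrain. Creld2, a stress-induced factor of this compartment, was at 6.27, 6.49 and 6.41 in prostate, -0.57 to 0.40 in skin, 1.68 to 2.37 in ovary and 0.32 to 0.62 in forebrain. Its smallest difference was 4.47 ± 0.27 (SE, against ovary, adjusted p = 1.2e-06, limma), the largest of the list. Dnajc3, a co-chaperone of BiP, was at 4.70, 4.94 and 4.79, and at most 2.22 on any other array. Dnajb9, another co-chaperone, was at 2.91, 3.16 and 3.37, and at most 0.85 elsewhere. Pdia5, a disulfide isomerase, was less even, at 0.45, 0.76 and 3.10 in prostate. The members not called were Ddit3, a factor of the stress response (0.56 against skin, 0.80 against ovary, -0.25 against forebrain), and Ero1a, an oxidase (0.61, -0.08 and 0.98).

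Some promoters of this list held a known response element. The endoplasmic reticulum stress response element is CCAAT, 9 bases of any kind and CCACG, searched here on both strands of the 250 bases before each start in RefSeq's table (GRCr8). It was found in 6 of the 18 genes of the list with a promoter in the table, in 10 of 6532 promoters of all measured genes with a symbol (0.153%), and in 22 of all 33469 promoters (0.0657%). Among the genes at least 2-fold higher in prostate 7 of 484 promoters held it, and these include the 6 of the list. Among the genes at least 2-fold lower none of 284 did, which tells little for an element found in 0.153% of promoters. The 7 matches in the list are printed 5′ to 3′ on the strand that reads the motif, with its fixed letters in capitals.
Hspa5, chr3:38452973-38452991, plus strand: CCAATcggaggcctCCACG
Hsp90b1, chr7:23012451-23012469, minus strand: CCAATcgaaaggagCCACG
Hsp90b1, chr7:23012347-23012365, plus strand: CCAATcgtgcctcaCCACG
Calr, chr19:40213135-40213153, minus strand: CCAATcagggtcgaCCACG
Canx, chr10:35158069-35158087, minus strand: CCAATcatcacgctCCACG
Dnajc3, chr15:102432534-102432552, plus strand: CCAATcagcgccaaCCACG
Creld2, chr7:121789239-121789257, minus strand: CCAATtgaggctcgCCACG
Hsp90b1 had a pair of matches on opposite strands. The match in Hspa5 lay from base 43 to base 25 before the start, and that in Creld2 from base 145 to base 127. All 6 genes were higher in prostate: Canx, the lectin chaperone calnexin, by 1.08 to 1.34, Hsp90b1, the chaperone GRP94, by 1.65 to 3.23, and Calr, calreticulin, by 1.74 to 2.83 over the 3 comparisons. The list was put together from genes known for this stress response, so the motif is not independent of that choice.

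Entry into the endoplasmic reticulum and export from it were higher to a like extent in count. Of 25 measured members 24 (96%) were higher in prostate than in each other tissue and none was lower, with median differences of 2.15 against skin, 1.33 against ovary and 2.34 against forebrain. Ssr1, a subunit of the complex beside the translocation channel, was at 3.73, 3.73 and 3.77 in prostate, 0.22 to 0.43 in skin, 1.33 to 1.92 in ovary and -0.78 to -0.53 in forebrain. No array of another tissue came near those of prostate, and the smallest difference was 2.20 ± 0.18 (SE, against ovary, adjusted p = 8.4e-06, limma). Sec11c, a subunit of the enzyme that removes signal peptides, had a smallest difference of 2.06 ± 0.22, and Sec61a1, the pore of the channel, one of 2.02 ± 0.21. Tram1, which assists translocation, had one of 1.94 ± 0.23. The member not called was Sar1b, a GTPase of vesicle budding, with 0.71 against skin (adjusted p = 0.054, limma), 1.89 against ovary and 2.39 against forebrain. In bulk tissue, more secretory cells and more of these RNAs per cell cannot be told apart.

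**Figure D2:**
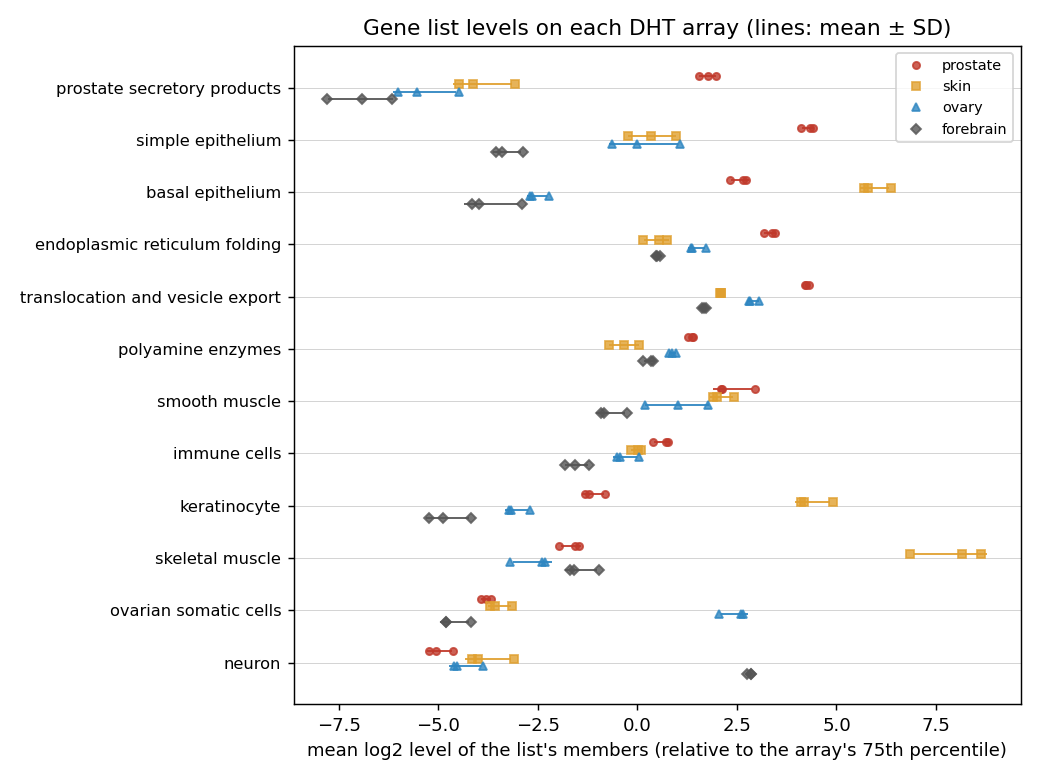
Mean level of the members of 12 gene lists on each DHT array, over members with a value on every array; lines span the mean ± SD of 3 arrays. Folding, translocation, simple epithelium and secretory lists have their prostate points to the right of all others, while basal, keratinocyte and skeletal muscle lists are highest in skin.

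Genes of polyamine metabolism were higher in prostate in 4 of 11 measured members (36.4%, beside 13.6% of all genes with a symbol), with none lower. Polyamines are secreted by the prostate in large amounts. The 4 were Odc1, ornithine decarboxylase, Amd1, S-adenosylmethionine decarboxylase, Srm, spermidine synthase, and Sms, spermine synthase. Sms was at 1.57, 1.94 and 2.11 in prostate and at most -0.79 on any other array, with a smallest difference of 2.82 ± 0.23 (SE, against ovary, adjusted p = 7.2e-06, limma). Amd1 was at 7.94 and 7.78, with array 2 left out, and nearest in forebrain (2.33 ± 0.26). Srm was at 4.77, 4.67 and 4.72, nearest in skin (1.73 ± 0.15). Odc1 had a difference of 0.87 ± 0.25 to ovary, which fell below the threshold without ovary array 2 (0.63) or without prostate array 2 (0.79). The members not called were Agmat, Arg1, Arg2, Azin1, Azin2, Oaz1 and Sat1. After quantile normalization or at a threshold of 0.01, 3 members were called higher, and 5 with probe averaging or array weights. After normexp 4 were higher and 1 was lower.

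Of 13 zinc transporters and metallothioneins 2 (15.4%) were higher and 1 (7.69%) was lower, shares near those of all genes with a symbol. Slc30a2, a transporter that loads zinc into vesicles, was at 1.82, 2.57 and 2.04 in prostate, with a difference to skin of 3.43 ± 0.55 (adjusted p = 0.00032, limma). Slc39a7, which releases zinc from the endoplasmic reticulum, was at 5.08, 5.12 and 5.05, with a difference to ovary of 2.03 ± 0.19. Mt3, the metallothionein of brain, was lower in prostate, with a difference of -3.22 ± 0.37 to skin.

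Glycosyltransferases, which build the sugar chains of secreted and membrane proteins, went both ways. Of 30 measured 8 (26.7%) were higher and 8 were lower, beside 13.6% and 6.13% of all genes with a symbol. The higher ones included Fut4, Fut2 and Fut9, which add fucose, and Abo3, of the ABO blood-group family. Fut4 was at 7.31, 7.25 and 7.30 in prostate, 1.91, 1.99 and 1.99 in ovary, -0.63 to -0.07 in skin and -2.04 to -1.95 in forebrain. The arrays of each tissue lay close together and the tissues far apart, with a smallest difference of 5.32 ± 0.16 (SE, adjusted p = 3.7e-08, limma). The lower ones were Galnt18, Mgat3 and the sialyltransferases St3gal2, St3gal3, St3gal4, St3gal5, St3gal6 and St6galnac3. St3gal5, which makes the ganglioside GM3, was at 1.46, 1.29 and 1.29 in prostate, and between 2.58 and 5.60 elsewhere. The sialyltransferase St6galnac2 was higher in prostate, and St3gal1 and St6gal1 were not called. The grouping by sugar was chosen after the values were seen. Of this list 4 members were called lower after quantile normalization and 10 with the percentile over detected probes.

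Of 22 genes of cholesterol synthesis 8 (36.4%) were higher and none was lower, beside 13.6% and 6.13% of all genes with a symbol. The 8 were Cyp51, Ebp, Fdft1, Fdps, Insig1, Lss, Nsdhl and Pmvk. Lss, lanosterol synthase, was at 3.53, 3.55 and 3.55 in prostate and at most 1.17 elsewhere, with a smallest difference of 2.81 ± 0.28 (SE, against skin, adjusted p = 1.2e-05, limma). After quantile normalization or with the percentile over detected probes 5 members were called higher, and likewise 5 without ovary array 1 or 2, prostate array 1, or forebrain array 2 or 3.

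**Figure D3:**
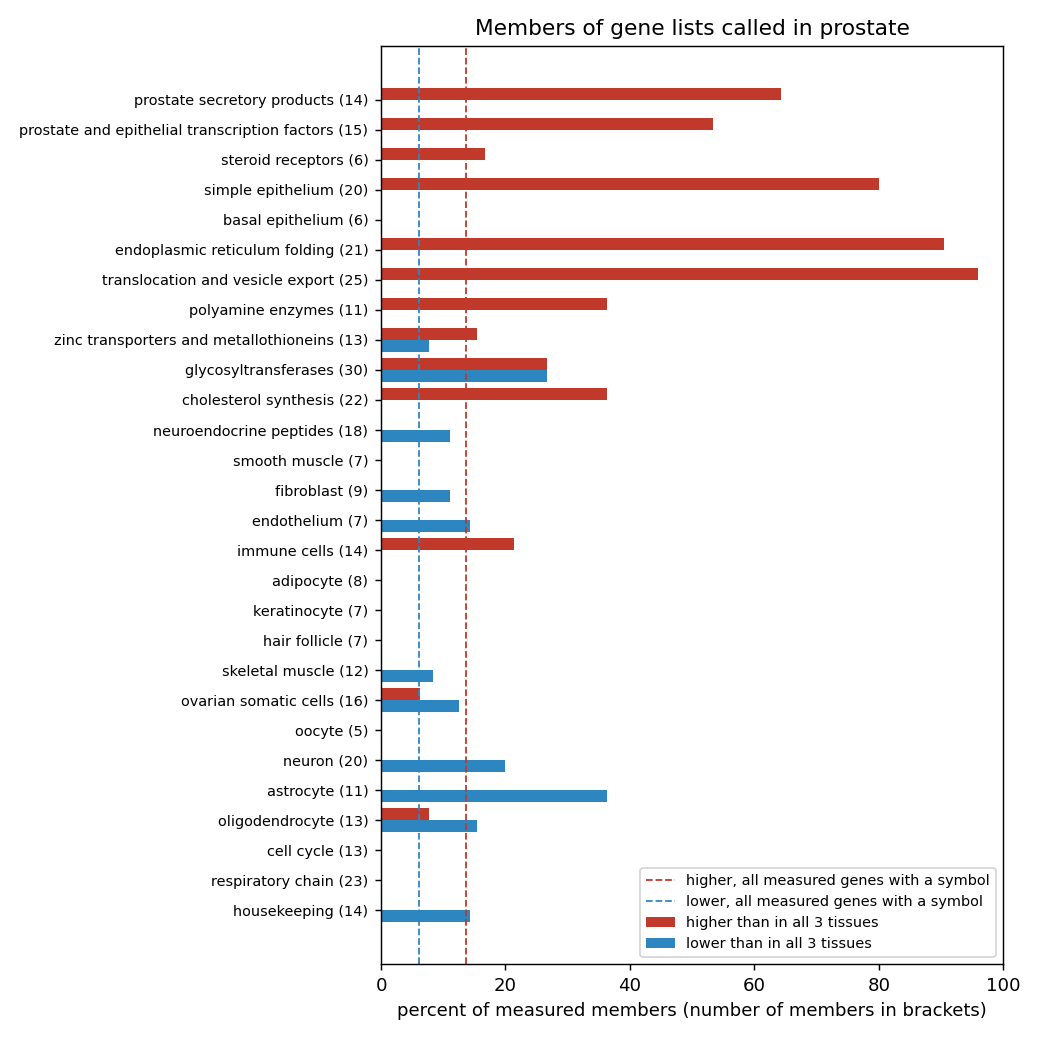
Share of measured members of each gene list called higher (red) or lower (blue) in prostate than in each of the other tissues; dashed lines give 13.6% and 6.13%, the shares among all genes with a symbol. Lists with fewer than 5 measured members are not drawn.

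Markers of other cell types gave few calls. Of 14 immune genes 3 (21.4%, beside 13.6% of all genes with a symbol) were higher in prostate: Pigr, Aif1 and C1qc. Pigr, which carries antibodies across epithelia and is made by epithelial cells, was at 1.24, 1.08 and 0.15, with a smallest difference of 5.05 ± 0.92 against ovary. Aif1 and C1qc, genes of macrophages, had smallest differences of 1.43 ± 0.26 and 1.05 ± 0.27, and the other probe of C1qc had 0.20 against skin. Other macrophage genes of the list were not called, with differences to skin of -0.02 for C1qa, -0.46 for C1qb, 0.17 for Cd68, -0.66 for Mpeg1 and -0.94 for Itgam. The list as a whole had a mean level of 0.62 ± 0.21 in prostate and -0.02 ± 0.13 in skin. Of 7 smooth muscle genes none was called, with a mean level of 2.39 ± 0.50 in prostate, 2.10 ± 0.29 in skin and 0.99 ± 0.80 in ovary. Svs4, a secretory gene of the seminal vesicle, was higher in prostate, at 2.13, 2.37 and 1.23 and with a smallest difference of 4.60 ± 0.43, while Svs5, the other measured gene of that list, was not well above background in prostate. The part of seminal vesicle tissue in these values was not tested.

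Among the lists for cells of the other tissues, the genes higher in prostate were Parm1 and Mal. Parm1, listed with ovarian somatic cells and also known as a mucin-like gene of prostate regulated by androgen, was at 7.05, 6.67 and 6.82, with a smallest difference of 3.91 ± 0.50. Mal, listed with oligodendrocytes and also a proteolipid of apical transport in epithelia, was at 4.10, 4.10 and 4.34 in prostate and 3.08, 3.25 and 3.32 in forebrain. That difference of 0.96 ± 0.30 (adjusted p = 0.018, limma) was no longer called without forebrain array 1 (0.89) or prostate array 3 (0.88). None of 13 cell cycle genes and none of 23 genes of the respiratory chain was called in all 3 comparisons. In skin, skeletal muscle genes had a mean level of 7.87 ± 0.92, against -1.67 ± 0.26 in prostate, and their part in the skin differences was not tested.

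The genes lower in prostate were of more varied kinds. The 15 with the largest smallest difference are shown in the plot of genes lower in prostate. They were taken among genes well above background on all 9 other arrays, with every prostate array below those 9. Fabp3, which carries fatty acids in muscle and heart, was at -5.67, -6.48 and -5.57 in prostate. It was at 3.37, 0.96 and 4.24 in skin, 1.35, 0.23 and 1.46 in ovary, and 0.93, 0.97 and 1.17 in forebrain. All 9 arrays of the other tissues were above all prostate arrays, where the gene was not well above background, and it was at least 253-fold higher in skin, 70.6-fold in ovary and 71.3-fold in forebrain.

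Grem1, a secreted inhibitor of bone morphogenetic proteins, was at -7.22 to -6.26 in prostate and at least 12.5-fold higher in each other tissue, although its second probe had a difference to ovary of only -0.44. Mycn, a growth-promoting transcription factor, was at least 7.74-fold higher in each other tissue and Ccna1, a cyclin of the germ line, at least 4.81-fold. Snurf, of the imprinted Snrpn locus, was at least 10.0-fold higher elsewhere. Adtrp, Epdr1 and Napepld were at least 6.43-fold, 5.28-fold and 5.49-fold higher. The probes of these genes were not well above background on any prostate array, except that the second probe of Grem1 was on 1.

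The connexin genes Gja1 and Gjb2 were among the 15 lower genes, but the call of Gjb2 was lost in 8 of 12 fits that left out 1 array. Gja1, connexin 43, was at 1.42, 1.03 and 0.95 in prostate, 2.48, 5.81 and 5.73 in skin, 5.06, 4.78 and 5.13 in ovary, and 4.93, 4.85 and 4.60 in forebrain. Skin array 1 lay closest to prostate, and the difference to skin was -3.54 ± 0.71 (SE, adjusted p = 0.00136, limma). Gjb2, connexin 26, varied widely in skin (1.13, 7.004 and 7.24) and ovary (-1.67, 2.68 and -0.77), with a difference to ovary of -4.25 ± 1.52 (adjusted p = 0.0451, limma). Its call was lost without ovary array 2 (-2.95), ovary array 3 (-4.68), prostate array 1 (-4.61), array 2 (-4.26) or array 3 (-3.88), or any forebrain array (-4.25).

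Atp1b2, a subunit of the sodium pump, was at 0.35, -0.29 and -0.12 in prostate and at least 3.70 on the other arrays. Pfn2, the actin-binding protein profilin 2, was at -1.13, -0.95 and -1.05, and at least 2.43 on the other arrays. Both were well above background on all prostate arrays. These lay below all other arrays, as the choice of these genes required. The smallest differences were -4.16 for Wipf3, an actin regulator, -4.08 for Slc5a5, the iodide transporter, and -3.81 for Ggt7. Of the astrocyte list 4 of 11 (36.4%) were lower in prostate than in each other tissue, and of the neuronal list 4 of 20 (20%). Of the oligodendrocyte list 2 of 13 (15.4%) were, and of the ovarian somatic list 2 of 16 (12.5%). The share of all genes with a symbol, 6.13%, is not a like measure, since these are marker lists of forebrain or ovary. That choice largely settled 1 of the 3 comparisons. All 20 neuronal, all 11 astrocyte and 11 of the 13 oligodendrocyte genes were lower than in forebrain. Of the ovarian list 15 of 16 were lower than in ovary. The astrocyte count in all 3 comparisons was 2 after normexp. The neuronal count was 2 after quantile normalization, 6 with the percentile over detected probes, 1 without prostate array 3 and 2 without prostate array 2, ovary array 1 or ovary array 2. Inha, inhibin alpha, was 2.44-fold lower than in skin, 306-fold lower than in ovary and 1.97-fold lower than in forebrain. Among 14 housekeeping genes 2 (14.3%) were lower, the glycolytic Gapdh and Pgk1. Gapdh was at 4.78, 4.91 and 4.79 in prostate, and its difference to ovary of -1.38 ± 0.40 was not called without ovary array 2 (-1.17).

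By detection alone, 34 genes (0.107%) were well above background on all 3 prostate arrays and on none of the other 9, and 69 genes (0.216%) on none of the prostate arrays and on all 9 others.

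**Figure D4:**
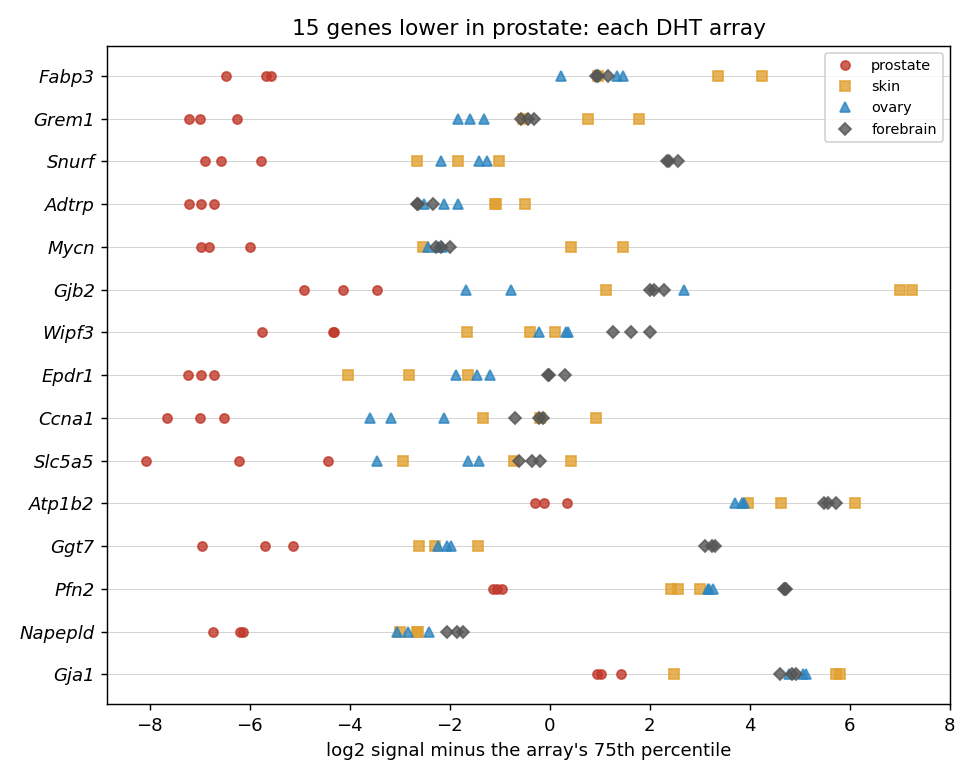
Levels (log2 signal minus the 75th percentile of the array) of the 15 named genes with the largest smallest difference against prostate, 1 point per DHT array. The prostate points lie to the left of all others in each gene, as the choice of these genes required. Gja1, Pfn2 and Atp1b2 have prostate points at or above -1.13.

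The vehicle arrays gave the same comparison in samples that had no part in the calls on DHT arrays. On 11 vehicle arrays 1229 of 33954 genes (3.62%) were higher in prostate than in each other tissue and 1373 (4.04%) were lower. Of the 3159 genes higher on DHT arrays and measured here 1029 (32.6%) were called in the same direction and 1 in the opposite one, and of 1962 lower genes 827 (42.2%) and 2. Conversely, 83.7% of the higher and 60.2% of the lower vehicle calls were among the DHT calls. Ovary vehicle arrays 1 and 3 stood apart, with 96.5% and 97.0% of probes well above background, and without them 835 genes were lower and 1018 higher. Prostate vehicle array 3 had 1531 outlier spots, and without it the counts were 1217 and 1042.

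Of the 15 leading higher genes 14 were also called on vehicle arrays, and of the 15 lower genes 13. The exception among the higher genes was Pbsn, at -3.91, -3.96 and -3.89 in vehicle prostate. It was at -3.27, -8.00 and -2.84 in vehicle ovary, where arrays 1 and 3 are those that stood apart. Its fitted difference there was 2.68 to skin (adjusted p = 0.106), 0.78 to ovary (adjusted p = 0.628) and 4.04 to forebrain (adjusted p = 0.0384, limma). Sbp, Andpro and S100vp were called there with smallest fitted differences of 8.09, 5.84 and 5.92. Foxa1, at -1.03, -0.97 and -0.78 in vehicle prostate, was also called, with a smallest fitted difference of 5.20. Slc30a2 was higher in vehicle prostate, at 5.54, 5.14 and 4.78, with a smallest difference of 6.96.

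The lists differed in how many of their members were called on vehicle arrays. Because members were chosen with earlier results of these data known, these counts are not independent of that choice. Of 20 simple epithelial genes 16 were higher in vehicle prostate, of 15 transcription factors 7 and of 14 secretory products 8. Of 21 folding genes 5 were higher and of 25 translocation and export genes 2, where the DHT arrays had 19 and 24. Calls were fewer over all genes too: 3.62% were higher and 4.04% lower on vehicle arrays, beside 9.94% and 6.16% on DHT arrays. Ovary vehicle arrays 1 and 3, which stood apart, enter the vehicle counts. The median differences of the folding list on vehicle arrays were 1.24 against skin, 0.30 against ovary and 1.13 against forebrain, beside -0.35, -0.66 and 0.10 over all genes. Those of the translocation list were 1.23, 0.42 and 1.55, and those of the simple epithelial list 3.45, 4.23 and 7.71. All genes here include those without a symbol, whereas the DHT lists were set beside genes with a symbol. On DHT arrays the medians were -0.27, 0.15 and 0.17 over all genes and 0.01, 0.12 and 0.34 over those with a symbol. Creld2, at 2.41, 2.47 and 2.81 in vehicle prostate, was called with a smallest difference of 1.02. Ssr1 was not called, with 0.65 against ovary (adjusted p = 0.0506, limma). Of the cholesterol list 1 member was higher and 4 were lower. Whether a list differed between DHT and vehicle arrays was not tested here.

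**Figure D5:**
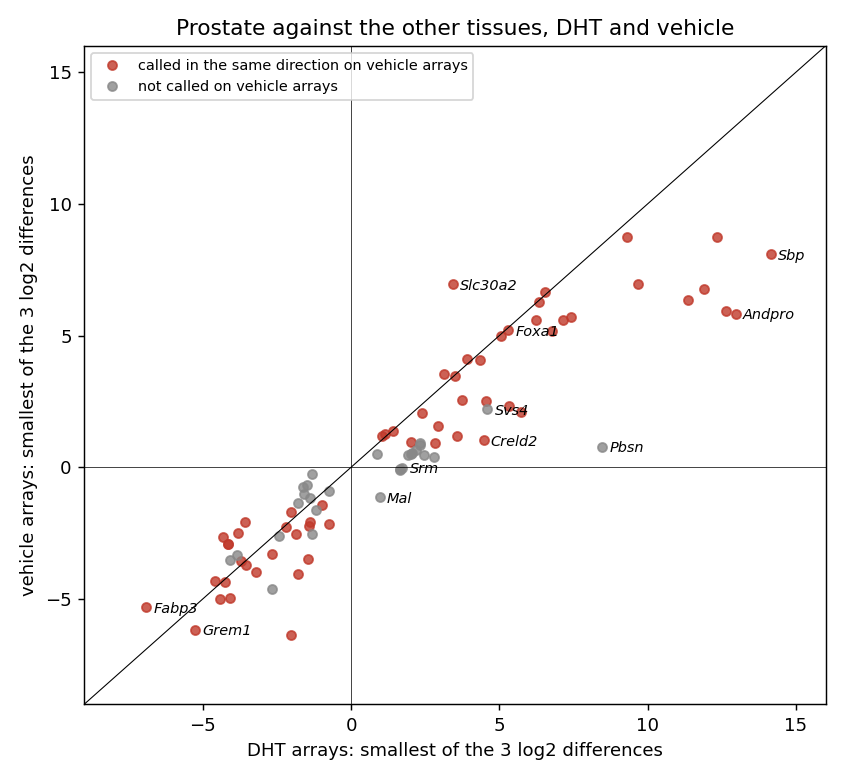
Smallest of the 3 log2 differences between prostate and the other tissues for the named genes, on DHT arrays (x axis) and on vehicle arrays (y axis); red points were called in the same direction on the vehicle arrays and the line marks equal values. Differences are as fitted and are not exact where a tissue was not well above background, as for Pbsn (8.47 and 0.78) and Foxa1; Slc30a2, measured on all DHT arrays of skin, lies above the line (3.43 and 6.96).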

How the data were processed

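RNA was amplified and labelled with Cy3 and hybridised to one-colour Agilent rat arrays, per the labels' protocols. The deposited files give each spot's processed signal, an intensity that the authors obtained with Agilent Feature Extraction. The file headers give version 10.5.1.1, while the submitters' processing notes name 10.1 and limma. How background was handled in that signal is not given in the sources used here. Each array had 42429 spots. The 1417 control spots, and outlier spots on their array, were left out. No spot was saturated.

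From the deposited values, log2 levels were computed as log2 signal minus the 75th percentile of the array. A probe entered if 3 or more of the 12 arrays had it well above background, and each gene was represented by its brightest probe. Of 41012 probes 10813 (8945 symbols) were named by accession from a GRCr8 table. The others were counted only. limma 3.58.1 (R 4.3.3) fitted 4 tissues together, with Benjamini-Hochberg adjustment over all genes of a contrast and a threshold of 0.05, and a gene was called if it passed in all 3 contrasts. The script was tested on simulated data. DHT arrays lay on 3 slides, 1 array of each tissue per slide and replicate number, per the file headers. All within-slide differences of the 87 named genes that were called had 1 sign. For the 15 higher and 15 lower genes the choice fixed this in advance. The others were called on the same arrays, so this is no separate check of the slides.

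Named were genes with a symbol, called, with prostate arrays beyond all other arrays: the 15 higher (well above background on all prostate arrays) and the 15 lower (on all 9 others) with the largest smallest difference, up to 4 members per list and direction, Pbsn, and steroid receptors. Other genes named as list members were chosen after their values were seen. Members and lists were chosen with earlier results of these data known. Alternatives covered background correction (normexp, on the median signal, because the planned mean signal column was not in the files), quantile normalization, another percentile, filters, probe averaging, a slide block, array weights, separate fits, all arrays in 1 fit, a threshold of 0.01, and each array left out. The number of arrays limits the precision. Some genes are not reported here.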

Additional observations from a re-analysis of the deposited data

Results flagged for a closer look

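The difference between prostate and another tissue had opposite signs on the DHT and the vehicle arrays for 3 of the named genes, with every prostate array on one side of every array of the other tissue under DHT and on the other side under vehicle. Whether the difference itself changed was not tested. Srm was higher in prostate than in skin by 1.73 on DHT arrays and differed by -0.82 on vehicle arrays, a change of 2.55. Mal differed from forebrain by 0.96 and -1.14, a change of 2.10. Esr2 differed from ovary by 0.68 and -3.48, a change of 4.16, and ovary vehicle arrays 1 and 3, which stood apart, enter that value.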

How the results depend on the processing

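Of the recomputed values of named genes 1915 kept their direction and side of the threshold, 86 lost the call, 1 gained it and 13 turned. The direction of Nr3c1, which was not called, turned with normexp (-0.15), quantile normalization (-0.14), the percentile over detected probes (-0.31), probe averaging (-0.0773) and without skin array 2 (-0.0051), with a range of -0.0051 to 0.0732 when 1 array was left out. That of Nr3c2, not called, turned with probe averaging (0.11) and without forebrain array 1 (0.17), forebrain array 2 (0.09) or prostate array 3 (0.015), with a range of -0.2886 to 0.1734. With normexp, Elf3 (-0.59), Pgr (0.11) and Stmn2 (0.21) turned, and with quantile normalization Pgr (0.11). The cause was not tested. With normexp 953 genes were at least 2-fold lower and 19683 were lower than in skin. With the percentile over detected probes 2108 were higher, 2961 lower and 2172 at least 2-fold lower. At a threshold of 0.01, 1148 were lower, and on vehicle arrays without ovary arrays 1 and 3, 835. With 1 array left out, 2503 to 3612 genes were higher and 1470 to 2155 lower (1618 to 1818 and 1140 to 1486 at least 2-fold). Against skin these were 8125 to 9244 and 9265 to 10576, against ovary 5671 to 8089 and 5330 to 7205, and against forebrain 9471 to 11343 and 7696 to 9014. Of 18 pairs of same-numbered arrays 9 had deviations correlated over 0.1 (from -0.04 to 0.25). For prostate and forebrain all 3 pairs did, for prostate and skin or ovary not all, and whether a shared slide or a shared animal lies behind this was not tested. The replicate block gave 3101 higher and 1966 lower genes. Of the calls, 3001 higher (94.6%) and 1846 lower ones (93.9%) were shared with the fit without it, and 91 of 92 named genes kept their call or lack of it. Skin arrays were dimmest, which limits differences to skin near background.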

Other observations

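A small set of genes was well above background on all 3 prostate DHT arrays and on none of the other 9: 34 of 31899 (0.107%), of which 10 had a symbol. Besides S100vp and Klk1c9 these were Mep1b, a subunit of the protease meprin, Fgl1, a fibrinogen-like secreted protein, Slc7a2, a transporter of cationic amino acids, Wap, the whey acidic protein of milk, Pik3c2g, a lipid kinase, Bsnd, a chloride channel subunit, Glyatl2 and Or5ac15. Mep1b had a level of -0.90 ± 0.28 (SD, n = 3) and Fgl1 one of -1.19 ± 0.33, at least 10.3-fold and 8.40-fold that of skin. Wap was at -2.55 ± 0.35, at least 3.28-fold that of skin. The reverse, no prostate array and all 9 others, held for 69 genes (0.216%), of which 17 had a symbol. Beside Fabp3, Grem1, Ccna1 and Mycn these included Neu2, a sialidase, Arnt2, a partner of bHLH-PAS factors, and Drd4, a dopamine receptor. These counts carry no test, and skin array 1 had the highest signal floor (-3.23 on the log2 scale, beside -6.84 to -4.74 on the other arrays).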
